A study of Mus musculus with 6 samples.

Results

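Venous endothelial cells were described in the quadriceps of mice with and without a muscle injury. They were selected on their transcripts alone: a barcode with at least 500 gene UMIs (unique molecular identifiers, 1 per captured transcript) needed at least 2 UMIs over the endothelial genes Pecam1, Cdh5, Egfl7 and Cldn5, at most 2 over the macrophage genes C1qa, C1qb and Tyrobp, at least 3 over the venous genes Selp, Ackr1, Vwf and Lrg1, and at most 1 over the arterial genes Gja5, Hey1, Sema3g and Stmn2. This gave 248 cells of 8427 barcodes, or 248 of the 2587 endothelial cells that met the endothelial and macrophage clauses. They numbered 83 of 1331 endothelial cells in uninjured muscle, 79 of 585 after a subcritical injury and 86 of 671 after a critical injury.

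All animals were male wild-type C57BL/6 mice aged 2 to 3 months. The subcritical group had a 2 mm defect in the left quadriceps and the critical group a 3 mm defect, a volumetric muscle loss (VML) injury in which more muscle is removed than the tissue replaces. Both were taken on day 7, and the uninjured group had no defect. Cells freed by collagenase II and dispase from 4 animals per group were given 1 hashtag antibody per animal and combined. Each group was then a single pool, labelled with barcoded antibodies (CITE-seq, which reads surface protein and RNA from the same cell) and sequenced as 1 library, so the injury and the handling of its pool cannot be told apart.

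Veins and venules collect blood from the capillaries, and the venules are where leukocytes leave the blood. Their lining stores P-selectin (Selp) and von Willebrand factor (Vwf) in Weibel-Palade bodies, granules that fuse with the cell surface within minutes of a stimulus. It also carries the chemokine-binding receptor Ackr1, and Lrg1 encodes a secreted glycoprotein known from inflamed and growing vessels.

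The members held a median of 2568 UMIs per cell in uninjured muscle, 1283 after subcritical injury and 1442.5 after critical injury, against 1612.5, 1029.5 and 1167 in the other endothelial cells of the same libraries. Their summed UMIs were 248623, 115546 and 175847. Mitochondrial transcripts made up 0.224%, 0.236% and 0.420% of them. Libraries shared 10 to 16 cell barcodes pairwise, none of them between members. Hashtags assigned 21, 13 and 10 members to 1 animal, and 4 critical members carried several hashtags.

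Lrg1 gave most of the marker UMIs that chose the cells (53.9%, 58.8% and 52.9% in the 3 libraries), which is a description of the rule and not a result. Lrg1 stood at 1979 CPM (a gene's UMIs over the summed cells, scaled to a common total) in uninjured muscle, 2830 in subcritical and 1860 in critical muscle. Vwf was at 792, 839 and 751 CPM, Selp at 491, 485 and 455 CPM, and Ackr1 at 406, 658 and 449 CPM. An Lrg1 UMI was found in 86.7%, 93.7% and 94.2% of members, and a Selp or Ackr1 UMI in 66.3%, 65.8% and 73.3%. Just inside the threshold, with 3 marker UMIs, were 11, 15 and 10 cells. Just outside, with 2, were 39, 26 and 12, and of these Lrg1 was found in 33.3%, 76.9% and 58.3% and Vwf in 84.6%, 26.9% and 41.7%.

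The label was checked against a list of venous markers that the rule did not use. They summed to 11930, 10120 and 9190 CPM in members against 1994, 2563 and 3068 CPM in other endothelial cells. All 11 general endothelial markers were found in each library. Pecam1, Cdh5, Egfl7 and Cldn5 are among them and belong to the rule, so their presence is no check of the label. Platelet genes, which matter because platelets also hold P-selectin and von Willebrand factor, summed to at most 69.2 CPM, with Ppbp and Gp9 at 0 in each library.

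Transcripts of other cell types were present and differed between the libraries. Fibroblast markers summed to 185, 710 and 3247 CPM in members (525, 2249 and 5090 CPM in other endothelial cells), with 7, 7 and 10 of 10 genes found and Pdgfra, Lum and Dpt at 0 in the first 2 libraries. Macrophage markers summed to 20.1, 615 and 677 CPM, with 2, 10 and 10 of 11 genes found and Adgre1 at 0 throughout. Pericyte and smooth muscle markers summed to 2224, 2112 and 2297 CPM, with 8, 10 and 9 of 10 genes found. In other endothelial cells these markers were lower, at 1774, 834 and 961 CPM. At least 3 fibroblast or macrophage UMIs were held by 4, 11 and 21 members, and at least 3 pericyte or smooth muscle UMIs by 41, 18 and 29. Their part in the group differences below was not tested, except where values without these cells are given.

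Surface protein was an independent readout, since no antibody entered the rule. The antibodies that set venous cells apart from other endothelial cells of the same animals are given here with 3 that a venous cell might carry and that did not pass the test. Each is read through a DNA barcode of 15 bases, shown in capitals because the whole barcode identifies the antibody, as the deposited antibody list gives it, 5′ to 3′.
CD73: ACACTTAACGTCTGG
CD54: ATAACCGACACAGTG
CD39: GCGTATTTAACCCGT
CD200: TCAATTCCGGTAGTC
CD38: CGTATCCGTCTCCTA
CD62P: TGTGTGCCGTAGACT
CD31: GCTGTAGTATCATGT
CD106: CGTTCCTACCTACCT

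Venous cells carried more CD73, CD54 and CD39 and less CD200 and CD38 than other endothelial cells. These were the only 5 of 110 antibodies tested that passed (4.55%, edgeR quasi-likelihood test with the animal as a block, Benjamini-Hochberg adjusted p under 0.05). CD73 and CD39 are enzymes that together turn extracellular ATP into adenosine, and CD54 (ICAM-1) is the adhesion molecule that leukocyte integrins bind. CD38 consumes NAD, and CD200 restrains myeloid cells through their CD200 receptor. The test rested on 4 animals with at least 5 cells of both kinds, 3 uninjured and 1 subcritical, holding 6 to 8 venous cells each, so it does not cover critical muscle.

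CD73 was read at 3.84 counts per venous cell in uninjured muscle, 2.58 in subcritical and 1.62 in critical, against 0.905, 0.577 and 0.503 in other endothelial cells. It was thus 3.22 to 4.48 times higher in every library, and the fitted difference within animals was 2.00 on the log2 scale (SE 0.244, edgeR adjusted p = 0.000549). CD54 was read at 2.86, 1.75 and 1.22 counts per venous cell against 0.623, 1.19 and 0.535, with a fitted difference of 2.11 (SE 0.251, edgeR adjusted p = 0.000549). In subcritical muscle 5 cells held 50.5% of the venous CD73 counts. The subcritical CD54 value in other endothelial cells also drew on few cells, the top 5 holding 34.8% of the counts. CD39 was the most abundant of the 3, at 17.1 counts per venous cell against 8.73 in uninjured muscle, and was 1.96, 2.46 and 1.40 times higher in the 3 libraries, with a fitted difference of 0.99 (SE 0.183, edgeR adjusted p = 0.0113), and 53.1% of its subcritical venous counts came from 5 cells.

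CD200 went the other way, at 5.60, 3.13 and 2.43 counts per venous cell against 15.2, 7.65 and 20.6, with a fitted difference of -0.90 (SE 0.175, edgeR adjusted p = 0.0118). CD38 was read at 3.98, 2.17 and 2.17 against 12.7, 6.73 and 11.5, a fitted difference of -1.08 (SE 0.222, edgeR adjusted p = 0.0148). In critical muscle 5 cells held 73.9% of the CD200 and 51.4% of the CD38 counts of the other endothelial cells, so those 2 values describe few cells. Without uninjured replicate 3, 2 antibodies passed, and with uninjured replicate 4 left out, 3 did. With the 3 libraries as pairs and all cells used, CD73 alone passed.

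The RNA for these proteins lay on the same side in most libraries. Icam1 was at 454, 277 and 245 CPM in venous cells against 72.6, 89.3 and 78.6 CPM in other endothelial cells, and Entpd1, which encodes CD39, at 326, 381 and 392 against 164, 148 and 179 CPM. Cd200 was at 330, 268 and 205 against 636, 360 and 284 CPM, and Cd38 at 76.4, 51.9 and 119 against 248, 154 and 172 CPM. Nt5e, which encodes CD73, gave 6, 2 and 0 UMIs in all venous cells of the 3 libraries, too few to compare. P-selectin differed between the readouts: the transcript Selp chose the cells, while CD62P was read at 1.30, 0.937 and 2.02 counts per venous cell against 1.44, 1.22 and 0.834, a fitted difference of -0.08 (SE 0.236) that did not pass (edgeR adjusted p = 0.950). In critical muscle 5 cells held 79.3% of the venous CD62P counts. CD31 (0.62, SE 0.266) and CD106, the product of Vcam1 (0.50, SE 0.341), did not pass either, at edgeR adjusted p of 0.514 and 0.765.

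**Figure D1:**
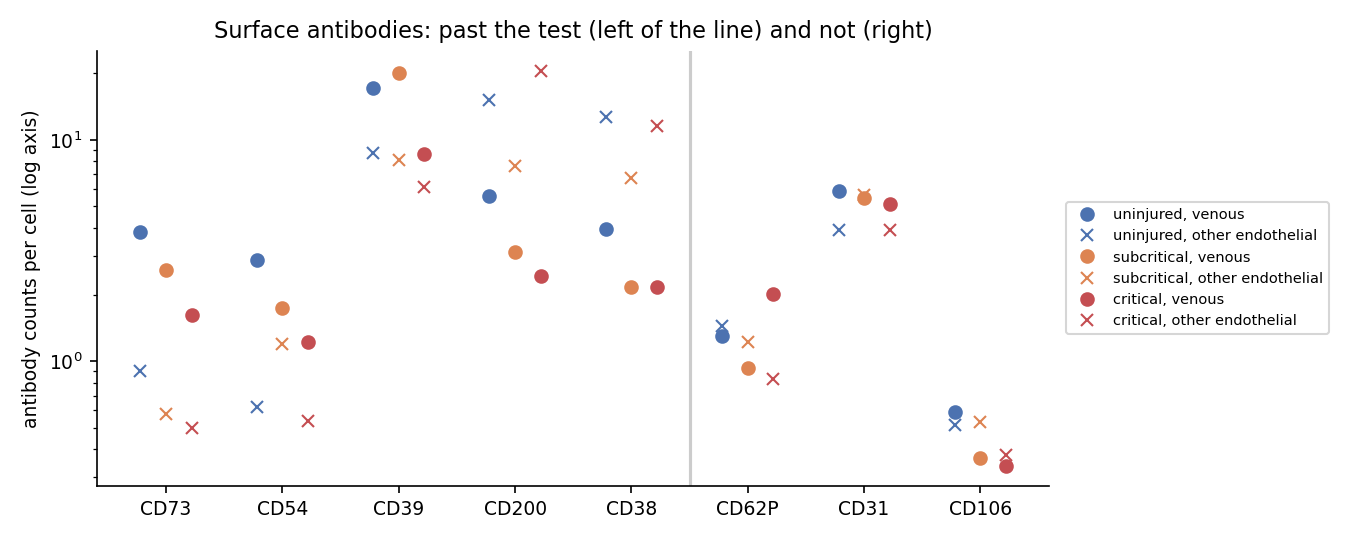
Antibody counts per cell (log axis) for 8 surface proteins in venous cells (filled circles) and other endothelial cells (crosses) of the uninjured, subcritical and critical libraries; each point is 1 library and carries no error. Left of the line are the 5 antibodies that passed the test within animals: CD73, CD54 and CD39 lie higher in venous cells in each library, CD200 and CD38 lower.

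Beyond the rule's genes, the transcripts that separated venous from other endothelial cells are a description, since the cells were chosen by transcripts measured in the same libraries. Plvap, which forms the diaphragms of fenestrae and caveolae, was at 4123, 3808 and 3224 CPM in venous cells against 229, 654 and 799 CPM in other endothelial cells. Ehd4, a membrane-trafficking ATPase, was at 1826, 1471 and 1427 against 186, 325 and 344 CPM. Il6st (gp130, the shared receptor subunit of the interleukin-6 family) was at 1404, 1030 and 825 against 211, 205 and 185 CPM, and Socs3, the feedback inhibitor below that receptor, at 350, 355 and 301 against 44.7, 60.0 and 42.9 CPM. These genes were found in many members: Plvap in 76, 76 and 82 cells and Il6st in 77, 53 and 59.

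Among the 15 genes with the steadiest excess over the 3 libraries were also 2 of prostaglandin handling. Ptgs1 (cyclooxygenase 1) was at 322, 190 and 193 CPM against 55.5, 30.7 and 37.8, and Slco2a1, the prostaglandin transporter, at 177, 363 and 210 against 18.6, 16.1 and 29.6 CPM. Ctnnal1, Csf2rb2 (a cytokine receptor subunit), Cadm3, Tmem252, Chp2, Cpe, Mras, Acer3 and the elastin gene Eln made up the rest of the 15. The vein regulator Nr2f2 stood at 173, 199 and 199 CPM against 45.05, 45.4 and 58.2 CPM. Ephb4, the venous partner of arterial ephrin-B2, was at 257, 147 and 205 against 193, 170 and 169 CPM, which was a small excess in 2 libraries and none in subcritical muscle. The selectin Sele was low, at 44.2, 51.9 and 45.5 CPM in venous cells and at most 4.39 CPM in other endothelial cells.

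Of 16 measured capillary and fatty acid genes, 4, 4 and 6 were higher in venous than in other endothelial cells of the 3 libraries, and the medians of the 16 were -0.92, -1.14 and -0.84. Gpihbp1, which holds lipoprotein lipase on the capillary surface, was at 467, 415 and 535 CPM against 2515, 1488 and 1657 CPM. Tcf15, a transcription factor of fatty acid-using capillaries, was at 334, 156 and 165 against 1391, 710 and 674 CPM, Kdr (VEGF receptor 2) at 265, 242 and 250 against 898, 556 and 598 CPM, and Rgcc at 117, 208 and 296 against 1160, 789 and 788 CPM. Fabp4 differed less, at 20891, 3972 and 6187 CPM in venous and 20554, 5220 and 5375 CPM in other endothelial cells.

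**Figure D2:**
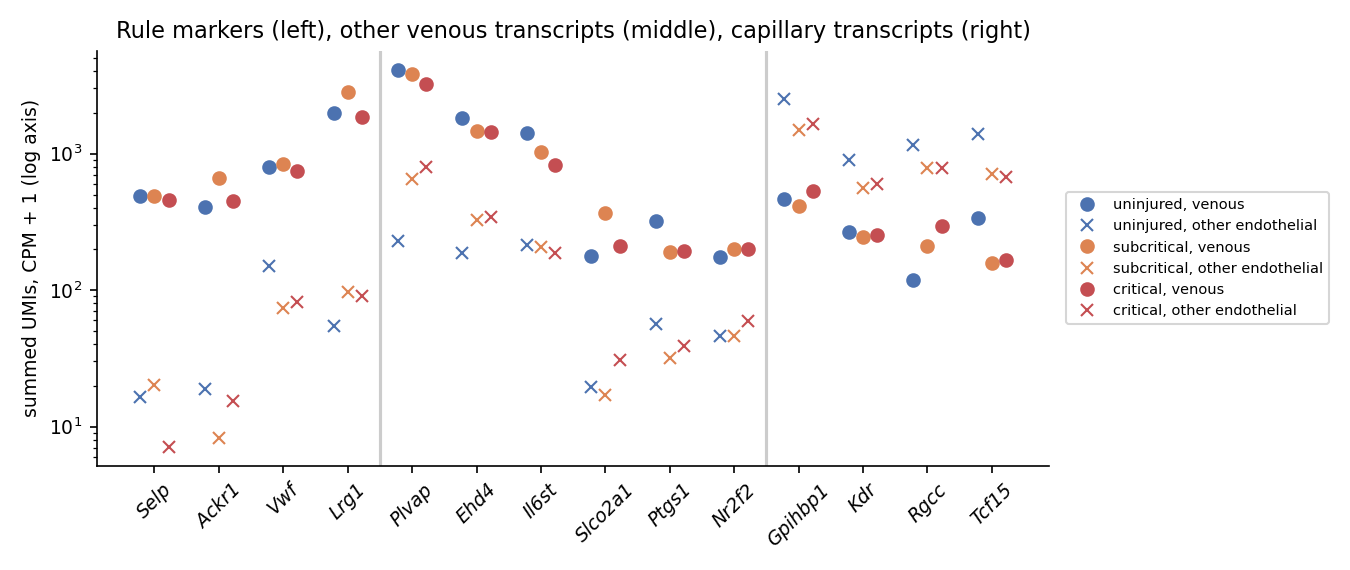
CPM of summed cells plus 1 (log axis) in venous cells (circles) and other endothelial cells (crosses) of each library for the 4 markers of the rule (left), 6 other venous-biased genes (middle) and 4 capillary genes (right); each point is 1 library and carries no error. Plvap, Ehd4 and Il6st lie higher in venous cells in all 3 libraries, and Gpihbp1, Kdr and Tcf15 lower.

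Venous cells were a larger share of the endothelial cells after injury by library, but the difference between animals did not pass its adjusted test. The share was 6.24% (95% Clopper-Pearson interval 4.997 to 7.67) in uninjured, 13.5% (10.8 to 16.5) in subcritical and 12.8% (10.4 to 15.6) in critical muscle, with intervals that cover counting error only. In cells thinned to 1000 UMIs, with smaller cells left out, it was 4.12%, 11.4% and 11.03%. With Lrg1 not used and at least 2 UMIs over Selp, Ackr1 and Vwf, the libraries lay closer together. The share was then 7.06% (5.74 to 8.57), 9.91% (7.61 to 12.6) and 10.3% (8.09 to 12.8), with overlapping intervals. Endothelial cells as a whole numbered 1331, 585 and 671, and a share cannot tell more venous cells from fewer capillary ones. The arterial clause removed 40, 3 and 10 cells, and without it the shares were 9.24%, 14.0% and 14.3%.

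Hashtags were called in 25.3%, 16.5% and 11.6% of members and in 46.2%, 22.5% and 21.9% of other endothelial cells, and most shares by animal lie below those by library. Among animals with at least 10 tagged endothelial cells, the share was 0%, 2.37%, 4.92% and 5.06% in uninjured animals. It was 14.3%, 5% and 14.9% in subcritical and 5.45%, 25.0% and 5.97% in critical animals. These critical animals lay above all uninjured ones, by little in 2 of 3, and the 25.0% rests on 3 venous of 12 endothelial cells. Left out by the limit were critical replicate 1, with 0 venous of 4 endothelial cells, and subcritical replicate 3, with 1 of 6. The mean was 12.1% ± 11.1 (SD, n = 3) in critical and 3.09% ± 2.40 (SD, n = 4) in uninjured animals, with an exact two-sided permutation p of 0.0286, the smallest that this design allows, and 0.0857 after adjustment over 3 comparisons. Without the animal at 25.0% the difference was 2.62 percentage points in place of 9.05 (exact permutation p = 0.133). The subcritical mean was 11.4% ± 5.54 (SD, n = 3; exact permutation p = 0.0571, adjusted 0.0857), and critical and subcritical animals differed by 0.748 percentage points (exact permutation p = 0.8, where 0.1 is the smallest allowed). With a marker sum of at least 4 both comparisons with uninjured passed (adjusted exact permutation p = 0.0429). With Lrg1 not used and at least 2 UMIs over Selp, Ackr1 and Vwf, the differences were 0.218 and 2.19 points (exact permutation p = 0.943 and 0.6), and with Lrg1 kept but a marker sum of at least 2 they were 5.51 and 6.75 points (exact permutation p = 0.4 and 0.0286). In cells thinned to 1000 UMIs the differences between animals were 1.64 and 3.602 points (exact permutation p = 0.714 and 0.2).

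**Figure D3:**
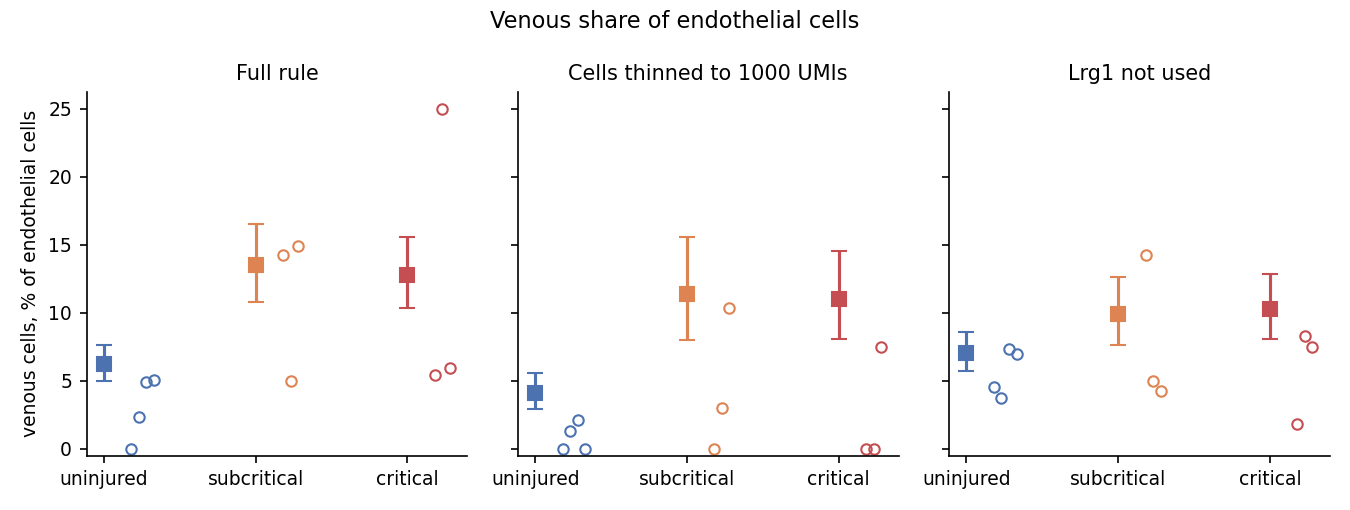
Venous cells as a percentage of endothelial cells under the full rule (left), in cells thinned to 1000 UMIs (middle) and with Lrg1 not used (right): open circles are animals told apart by hashtag, and squares are libraries with 95% Clopper-Pearson intervals. Only animals with at least 10 tagged endothelial cells are shown. Under the full rule the uninjured animals lie between 0 and 5.06%, the subcritical between 5 and 14.9% and the critical between 5.45 and 25.0%.

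Injury-related expression in venous cells was tested between animals. Members of 1 animal were summed where it had at least 3 of them, which left uninjured replicates 2, 3 and 4 (7, 6 and 8 cells), subcritical replicates 2 and 4 (3 and 7) and critical replicates 2, 3 and 4 (3, 3 and 4). Each sum held 7712 to 32753 UMIs, so that a gene at 100 CPM is read from about 1 to 3 UMIs. Of 620 genes tested by edgeR's quasi-likelihood test, 19 rose (3.06%) and 40 fell (6.45%) in critical against uninjured animals, and 13 rose (2.1%) and 24 fell (3.87%) in subcritical against uninjured. DESeq2 called 22 and 9 genes in these comparisons. Without uninjured replicate 4, 35 and 13 genes passed, and without subcritical replicate 2 or 4 the subcritical count was 21 or 23. Both comparisons share the uninjured animals. Because tagged cells are 11.6% to 25.3% of the members, the value over all members of a library is given beside results from which it differs. A log2 difference between libraries has no replicates and no test, and its 95% binomial interval covers counting error only.

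Among basement membrane genes, Col4a1, Col4a2 and Sparc rose in critical animals. Col4a1, a chain of type IV collagen, was at 611, 939 and 392 CPM in the 3 uninjured animals, 2853 and 2703 in the subcritical and 3898, 3572 and 2829 in the critical animals. No injured animal came near an uninjured one. The log2 change was 2.35 (SE 0.30, edgeR adjusted p = 1.14e-12) in critical and 2.05 (SE 0.34, edgeR adjusted p = 4.44e-07) in subcritical animals, and by library 2.26 and 2.37. Its partner chain Col4a2 rose by 2.02 (SE 0.38, edgeR adjusted p = 7.09e-06) and 1.79 (SE 0.44, edgeR adjusted p = 0.0025), with uninjured animals at 336, 671 and 352 CPM and injured ones at 1147 to 2408.

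Sparc, a matricellular protein that binds collagen IV, was at 1099, 2102 and 1762 CPM in uninjured, 3631 and 2564 in subcritical and 6287, 7766 and 6118 in critical animals. The 3 groups did not overlap. Of the 59 genes called in critical against uninjured animals, 51 did not overlap between those groups. They were called on these same animals, and the share without overlap over all 620 genes was not counted. The separation is thus no support beyond the tests. Sparc rose by 1.99 (SE 0.25, edgeR adjusted p = 3.25e-13) in critical animals. Its level in critical animals exceeded that in subcritical ones by 1.17 (SE 0.29, edgeR adjusted p = 0.0197), the only gene of 620 that was higher in that comparison (0.161%). By library the critical-to-subcritical difference in Sparc was 0.36. The collagens of endothelial sprouts rose as well. Col18a1, the source of endostatin, was at 0 CPM in the 3 uninjured animals, 778 and 624 in the subcritical and 0, 466 and 382 in the critical animals (edgeR adjusted p = 0.000114 and 0.00242). By library Col18a1 was at 24.1, 424 and 279 CPM. Col15a1 rose in critical animals by 2.45 (SE 0.60, edgeR adjusted p = 0.00122) and was at 133, 459 and 483 CPM by library.

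Of 30 basement membrane and matrix genes in the list, 10 were tested by animal: 3 rose (Sparc, Col4a1, Col4a2) and 1 fell (Timp3, an inhibitor of metalloproteinases) in critical animals, with a median log2 change of 0.76 against 0.02 over all 620 genes. Timp3 fell by 2.10 on the log2 scale (SE 0.73, edgeR adjusted p = 0.0439). By library 25 were measured, and 10 were at least 2-fold higher and 2 at least 2-fold lower in critical than in uninjured muscle. The share of all 3193 genes measured that was at least 2-fold higher was 6.23%, and 7.02% were at least 2-fold lower. In subcritical muscle 9 and 2 of the 25 did so, where 6.39% of all genes were higher and 9.02% lower. Tgfbi, an integrin-binding matrix protein, was among them at 4.02, 260 and 165 CPM, against 10.5, 19.0 and 36.8 CPM in other endothelial cells. It was found in 1, 15 and 16 members, and cells outside the endothelium had 261, 284 and 311 CPM. Over the 25 genes by library, the median log2 difference from uninjured was 0.54 in critical and 0.46 in subcritical venous cells. In other endothelial cells it was 1.13 and 0.54, so the rise was not particular to venous cells.

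Genes of sprouting and activated endothelium moved in part. Aplnr, the apelin receptor, was at 91.6, 268 and 274 CPM in uninjured and 629, 699 and 688 CPM in critical animals, and rose by 1.65 (SE 0.58, edgeR adjusted p = 0.0486), a call that held in 1 of 14 alternatives. Of 26 sprouting genes, 6 were tested and 3 rose in critical animals (Aplnr, Col15a1, Col18a1), where 3.06% of all 620 genes rose. Angpt2, which is stored in Weibel-Palade bodies and loosens vessel walls, was at 20.1, 113 and 102 CPM by library. Cd63, a tetraspanin of those granules that keeps P-selectin at the surface, rose by 3.52 (SE 0.77, edgeR adjusted p = 0.000181) in critical and 2.82 (SE 0.94, edgeR adjusted p = 0.0467) in subcritical animals. It was at 0, 0 and 157 CPM in uninjured animals and 346 to 918 CPM in injured ones, and by library the differences were smaller, at 2.10 and 2.09. Of 24 Weibel-Palade and haemostasis genes, Cd63 was the only one of 5 tested that passed. Anxa2 and S100a10, which together hold plasminogen at the cell surface, differed by 0.23 (SE 0.38) and 0.48 (SE 0.36) in critical animals and did not pass (edgeR adjusted p = 0.850 and 0.531).

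Lgals1 (galectin-1) and the intermediate filament gene Vim also rose. Lgals1 was at 61.1, 179 and 0 CPM in uninjured, 2593 and 693 in subcritical and 629, 2563 and 1071 in critical animals, a change of 4.13 (SE 0.58, edgeR adjusted p = 1.8e-09) in critical and 4.15 (SE 0.64, edgeR adjusted p = 1.91e-07) in subcritical animals. By library it was smaller, at 2.29 and 1.56. Fibroblast collagens rose in the same sums: Col3a1 by 5.06 (SE 0.77), Col1a1 by 6.08 (SE 1.40) and Col1a2 by 4.71 (SE 1.17) in critical animals (edgeR adjusted p = 1.79e-08, 0.000561 and 0.00138). The 5 richest cells held 78.5% of the Col1a1 UMIs of the critical members, and fibroblast markers differed between the libraries as given above. Acta2, an actin of smooth muscle, rose by 3.97 (SE 0.94, edgeR adjusted p = 0.00122), with critical animals at 0, 1087 and 306 CPM and 5 cells holding 85.7% of its critical UMIs. Over all members Acta2 differed by 0.84. Without members holding at least 3 fibroblast or macrophage UMIs, and with 2 cells per animal accepted, 42 genes passed in critical and 8 in subcritical animals.

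**Figure D4:**
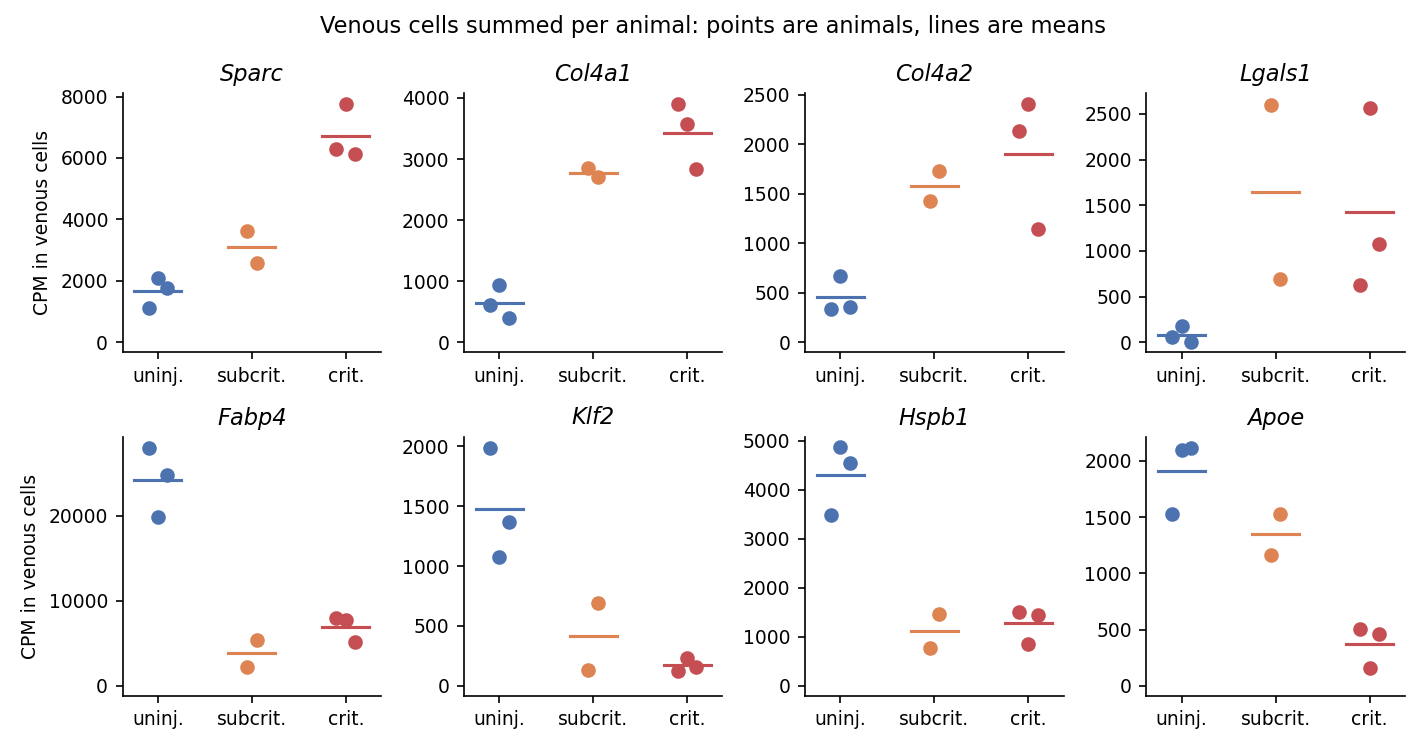
CPM in venous cells summed per animal for 4 genes that rose (Sparc, Col4a1, Col4a2, Lgals1) and 4 that fell (Fabp4, Klf2, Hspb1, Apoe) in critical animals; points are animals with at least 3 venous cells and lines are group means. Uninjured and critical animals do not overlap in any of the 8, and Sparc and Apoe also separate critical from subcritical animals. The 8 were chosen among the 59 genes called on these same animals, of which 51 did not overlap.

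Of 7 tested genes linked to shear stress and quiescence, Klf2, Klf4 and Ptprb fell. Klf2, a transcription factor induced by laminar shear, was at 1985, 1073 and 1371 CPM in uninjured, 130 and 693 in subcritical and 126, 233 and 153 in critical animals. The log2 change was -3.07 (SE 0.54, edgeR adjusted p = 7.22e-07) in critical and -1.69 (SE 0.52, edgeR adjusted p = 0.0249) in subcritical animals, and by library -1.59 and -1.38. Klf4, its close relative, was at 427, 537 and 822 CPM in uninjured animals and found in 1 of 5 injured animals, at 77.7 CPM (edgeR adjusted p = 0.000764 and 0.00273). By library Klf4 was at 471, 208 and 108 CPM. Ptprb (VE-PTP, which restrains the Tie2 receptor and steadies junctions) fell by 1.25 (SE 0.40, edgeR adjusted p = 0.0224) and 1.66 (SE 0.49, edgeR adjusted p = 0.0189), and by library differed by -0.80 and -1.45. Of 16 shear and quiescence genes, 7 were tested and these 3 fell in both comparisons, with medians of -1.04 and -1.66 against 0.02 and -0.07 over all genes. Of all 620 genes, 6.45% and 3.87% fell. In other endothelial cells Klf2 differed by -1.39 and -1.19 by library.

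Among capillary and fatty acid genes, Fabp4, Aqp1 and Timp4 fell in critical animals. Fabp4, the fatty acid-binding protein, was at 27967, 19809 and 24792 CPM in uninjured, 2204 and 5405 in subcritical and 7922, 7689 and 5124 in critical animals. It fell by 1.87 (SE 0.24, edgeR adjusted p = 2.36e-12) in critical and 2.65 (SE 0.30, edgeR adjusted p = 9.08e-16) in subcritical animals, and other endothelial cells differed by -1.93 and -1.98 by library. Aqp1, a water channel, was at 4366, 3130 and 4073 CPM in uninjured and 1635, 621 and 1759 CPM in critical animals (-1.61, SE 0.28, edgeR adjusted p = 7.54e-07). Over all members of the critical library Aqp1 differed by only -0.37. Timp4 fell in both comparisons (edgeR adjusted p = 0.00218 and 0.00648) and was at 233, 0 and 22.7 CPM by library. Of 22 capillary and fatty acid genes 12 were tested, and 3 fell in critical and 2 in subcritical animals. Of all 620 genes, 6.45% and 3.87% fell. Abcg2, an efflux transporter, and the amino acid transporter subunit Slc3a2 fell in critical animals, by 3.74 (SE 1.08, edgeR adjusted p = 0.00838) and 3.11 (SE 0.85, edgeR adjusted p = 0.00454) on the log2 scale. By library they differed by -1.48 and -1.93.

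Of 27 genes of leukocyte adhesion and recruitment, 5 were tested by animal, and 1 fell in each comparison with uninjured. Of all 620 genes, 6.45% fell in critical and 3.87% in subcritical animals. Icam1 fell in critical animals: it was at 1008, 313 and 352 CPM in uninjured, 389 and 139 in subcritical and 0, 77.7 and 0 CPM in critical animals (-4.03, SE 0.95, edgeR adjusted p = 0.00068). By library the difference was smaller, at 454, 277 and 245 CPM, or -0.89 (interval -1.44 to -0.38). Vcam1 was at 326, 104 and 51.2 CPM by library and the chemokine gene Cxcl1 at 129, 43.3 and 45.5 CPM, both too low for the test by animal. The Cxcl1 difference between critical and uninjured muscle turned to 0.152 with Lrg1 not used and to 1.24 without members holding at least 3 pericyte or smooth muscle UMIs. In critical muscle 66.7% of the Vcam1 UMIs came from 5 cells. Cxcl12 fell in subcritical animals by 1.62 (SE 0.48, edgeR adjusted p = 0.0228) and was not called in critical ones (-0.46, SE 0.36, edgeR adjusted p = 0.578). The injured groups themselves did not pass (edgeR adjusted p = 0.599), and by library Cxcl12 was at 1215, 718 and 586 CPM. By library 11 of the 27 were measured. In critical muscle 1 was at least 2-fold higher and 5 at least 2-fold lower, with a median of -0.89 against -0.00282 over all 3193 genes. In subcritical muscle 2 and 3 were so, with a median of -0.71. Of all 3193 genes, 6.23% were at least 2-fold higher and 7.02% lower in critical muscle. In subcritical muscle these shares were 6.39% and 9.02%.

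Signalling downstream of inflammatory receptors gave few calls. Il6st fell in critical animals, from 946, 1297 and 666 CPM in uninjured to 503, 155 and 382 CPM (-1.58, SE 0.52, edgeR adjusted p = 0.03), and by library differed by -0.77 (interval -1.06 to -0.48). Nfkbia, the inhibitor that NF-kB itself induces, differed by -1.003 (SE 0.47) and did not pass (edgeR adjusted p = 0.197). Socs3 differed by -0.21 (interval -0.74 to 0.29) between the critical and uninjured libraries. Of the immediate early and stress genes that digestion of tissue can induce, 13 of 22 were tested. In critical animals 4 fell (Jun, Junb, Hspa1b, Hspb1) and in subcritical animals 3 (Ier3, Hspa1b, Hspb1). Of all 620 genes, 6.45% and 3.87% fell. Hspb1, a small heat shock protein, was at 3481, 4874 and 4543 CPM in uninjured animals and 778 to 1509 CPM in the 5 injured ones (-1.83, SE 0.29, edgeR adjusted p = 1.63e-08 in critical). Jun fell by 1.37 (SE 0.48, edgeR adjusted p = 0.0475), a call that held in 4 of 15 alternatives, and by library differed by -0.71. All animals went through the same digestion per the labels, but each group was 1 pool.

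Antigen presentation and interferon genes gave few calls. H2-D1 fell in critical animals by 1.60 (SE 0.32, edgeR adjusted p = 1.82e-05), the only 1 of 8 tested class I genes to pass, and by library it differed by -0.55. Ifitm2 and Ly6a fell among 6 tested interferon genes, by 1.80 (SE 0.31, edgeR adjusted p = 3.32e-07) and 0.99 (SE 0.27, edgeR adjusted p = 0.00389), and by library differed by -0.84 and -0.82. MHC class II genes were too low to test by animal. Cd74 was at 84.5, 164 and 580 CPM by library, but without the 4 critical members of several hashtags the critical-to-uninjured difference for Cd74 turned to -0.30. Proliferation genes gave 0 calls of 4 tested in either comparison with uninjured by edgeR and by DESeq2, with 0 and 1 at an unadjusted p under 0.05. Stmn1, a marker of dividing cells, was at 20.1, 51.9 and 165 CPM by library, but with Lrg1 not used it differed from uninjured by -0.13 in critical and -0.074 in subcritical muscle, and without the arterial clause by -0.17 in subcritical. Tubb5, a tubulin gene, differed by 0.33 in critical animals (SE 0.47, edgeR adjusted p = 0.821). TGF-beta genes gave 0 calls of 4 by either tool and 0 at an unadjusted p under 0.05, and glycolysis genes 0 of 5 by either tool, with 1 and 0 at that unadjusted p.

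Rps27 and Rps29, which encode ribosomal proteins, fell in critical animals. Rps27 was at 2565, 2236 and 3055 CPM in uninjured, 0 and 693 in subcritical and 126, 155 and 382 in critical animals (-3.49, SE 0.43, edgeR adjusted p = 3.25e-13). By library it was at 2679, 407 and 438 CPM in venous and 1888, 315 and 325 CPM in other endothelial cells. Rps29 was low in critical muscle alone, at 3825, 3756 and 1302 CPM in venous and 2725, 2952 and 1165 in other endothelial cells by library. The 78 ribosomal protein genes as a group had a median log2 difference of 0.11 in critical against uninjured venous cells. Because each group is 1 library, a feature of the library and a response of the cells cannot be told apart here.

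Critical and subcritical animals differed in 4 genes. Besides Sparc, Apoe, Rps28 and Rps29 were lower in critical animals (0.484% of 620). Apoe, which carries lipid, was at 1527, 2102 and 2115 CPM in uninjured, 1167 and 1525 in subcritical and 503, 155 and 459 in critical animals. Critical animals lay below all others, with a difference from subcritical of -1.92 (SE 0.51, edgeR adjusted p = 0.0249) and from uninjured of -2.44 (SE 0.42, edgeR adjusted p = 3.33e-07). Over all members the Apoe levels were 1870, 1021 and 779 CPM, a critical-to-subcritical difference of only -0.39. The calls for Apoe, Rps28 and Sparc were lost in 10, 8 and 8 of 15 alternatives and that for Rps29 in 1. Without critical replicate 2 or 3, 2 genes or 1 passed. By library, 5.92% of 3193 genes were at least 2-fold higher and 4.73% at least 2-fold lower in critical than in subcritical muscle, with the fibroblast genes Dcn and Col3a1 among the higher ones. The 5 richest cells held 95.1% of the critical Dcn UMIs.

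Venous and other endothelial cells of the same animals responded differently in a few genes. The difference of the 2 responses passed for 6 of 1934 genes in critical (0.31%) and for 6 in subcritical animals (0.31%), and Plvap and Ehd4 led. Plvap was at 3694, 3220 and 2154 CPM in venous cells of uninjured animals, 4279 and 2148 in subcritical and 2012, 1864 and 2447 in critical animals. In other endothelial cells of the same animals it was at 86.7, 229 and 49.7 CPM in uninjured, 577 and 737 in subcritical and 563, 323 and 643 in critical animals. Venous cells differed by -0.56 (SE 0.27, edgeR adjusted p = 0.206) and -0.04 (SE 0.29, edgeR adjusted p = 0.968) from uninjured, neither of which passed, and the other cells of every injured animal lay above those of every uninjured one. The venous response minus the other response was -3.01 (SE 0.393, edgeR adjusted p = 3.77e-11) in critical and -2.82 (SE 0.414, edgeR adjusted p = 2.23e-08) in subcritical animals, and both calls held in 13 of 13 alternatives, DESeq2 among them.

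Ehd4 gave a similar picture. It was at 1496, 1431 and 1528 CPM in venous cells of uninjured, 1297 and 1525 in subcritical and 251, 777 and 535 in critical animals, while other endothelial cells were at 74.4 to 145 CPM in uninjured and 188 to 467 CPM in injured animals. The difference of responses was -3.22 (SE 0.543, edgeR adjusted p = 2.93e-06) in critical, which held in 13 of 13 alternatives, and -2.08 (SE 0.524, edgeR adjusted p = 0.0277) in subcritical animals, which held in 7 of 13. Within venous cells Ehd4 fell in critical animals by 1.46 (SE 0.40, edgeR adjusted p = 0.0048), but over all critical members it differed by -0.36 (interval -0.58 to -0.13). Vim was at 2839, 4427 and 3290 CPM in venous cells of uninjured and 4275, 5902 and 10171 CPM in those of critical animals (0.93, SE 0.23, edgeR adjusted p = 0.00139). Its venous response was below that of other endothelial cells, with differences of -1.24 (SE 0.305, edgeR adjusted p = 0.0158) and -1.41 (SE 0.342, edgeR adjusted p = 0.0173), each held in 5 of 13 alternatives.

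The other endothelial cells can include venous cells whose markers were missed, and they were shallower after injury. Their cells with no marker UMI at all, of which there were 795, 335 and 405 without arterial markers, had Plvap at 78.0, 547 and 630 CPM and Ehd4 at 87.5, 254 and 223 CPM. Arterial-marked cells had Plvap at 323, 343 and 826 CPM. Within venous cells Plvap was higher with more marker UMIs, from 2026, 3399 and 1833 CPM at a sum of 3 to 4662, 4068 and 4084 CPM above 6. How far missed venous cells contribute was not tested.

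**Figure D5:**
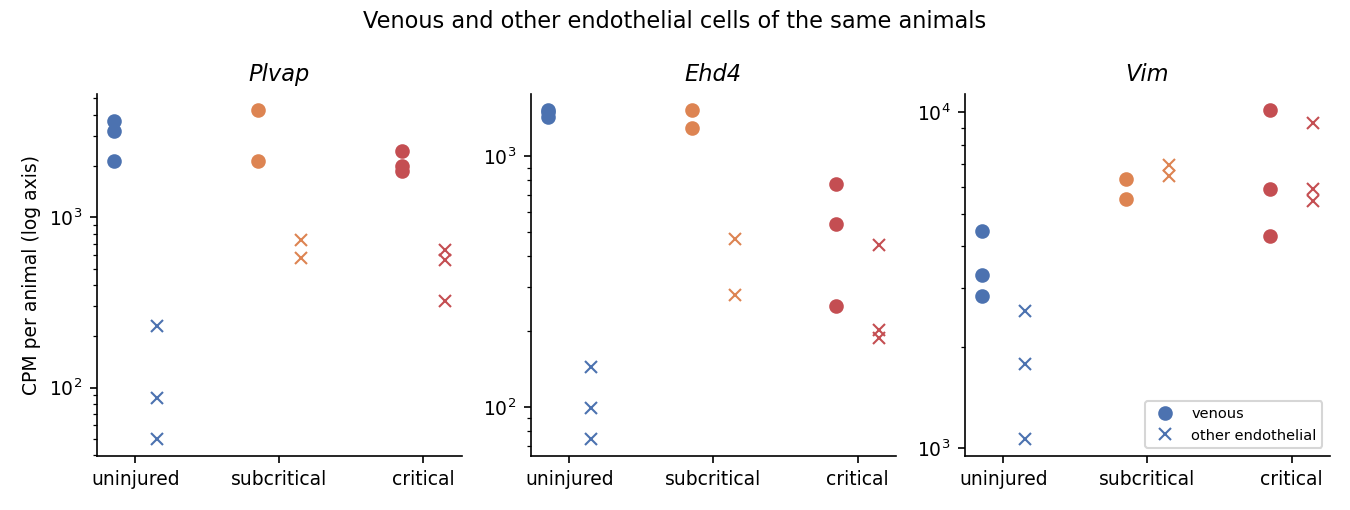
CPM per animal (log axis) of Plvap, Ehd4 and Vim in venous cells (circles) and in the other endothelial cells (crosses) of the same animals. Plvap lies between 1864 and 4279 CPM in venous cells of all groups, and in other endothelial cells between 49.7 and 229 CPM in uninjured and 323 and 737 CPM in injured animals.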

How the data were processed

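Gene and antibody UMI counts were deposited by the authors as 3 matrices, 1 per group, each with 32285 genes and 142 antibody features, 4 of them hashtags. They came from cellranger 6.0.2 per the file headers, and GRCm39 (mm39), Cell Ranger and bcl2fastq are listed in the submitters' processing notes. The raw counts were used as deposited. Libraries held 2195, 3071 and 3161 barcodes with 5681346, 4954129 and 7138662 gene UMIs. The 78 repeated gene symbols were kept apart.

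Cells were chosen by the rule in the report. Hashtags were assigned with a negative binomial mixture per hashtag at a posterior of 0.9, and the lowest count called ran from 2 to 8. No doublet caller was run. The members, gene lists and markers were chosen with earlier results of these data known.

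UMIs summed per animal were tested with edgeR 4.0.16 (TMM, filterByExpr with a minimum count of 5, robust quasi-likelihood fit over the 3 groups, Benjamini-Hochberg adjusted p under 0.05), without the 15 genes of the rule. At least 5 venous cells in each of at least 2 animals per group had been planned. Only uninjured muscle met this, so at least 3 cells were used, a choice made after the cell counts were seen. Responses of venous and other endothelial cells were compared with the animal as a block. For simulated 4-fold changes in the critical against uninjured comparison, run on 665 genes, 81 of 136 changed genes were recovered with 2 false calls. Every simulated gene had the same fixed spread between animals, and the changed genes were taken from the most abundant ones. Genes whose UMIs come mostly from a few cells were not simulated, so the count of false calls does not carry over to them. Antibody counts used filterByExpr defaults, and DESeq2 1.42.0 was an alternative throughout. Labels give 4 animals per group, so the replicates are animals of 1 pool.

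By library, UMIs of all members were summed to CPM with a pseudocount of 1 CPM, for genes with a mean of at least 50 CPM, and no test was made. Named were up to 10 genes per direction by adjusted p by animal, up to 8 per direction by fold by library (mean of at least 100 CPM, interval without 0), the rule's genes, 4 members of each list by level and fold, the 15 most venous-biased genes and the antibodies that passed. Others (Sele, Nr2f2, Ephb4 and the genes paired with antibodies among them) were chosen after their values were seen.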

Additional observations from a re-analysis of the deposited data

Results flagged for a closer look

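For 9 genes the injury response of venous cells differed from that of other endothelial cells of the same animals by a direct test of the difference (edgeR, log2 scale, venous minus other response). In critical against uninjured animals the differences were -3.01 for Plvap, -3.22 for Ehd4, -2.54 for Apoe, -1.36 for Ly6a and -1.24 for Vim, all towards a lower venous value, and 9.82 for Myh11. In subcritical against uninjured animals they were -2.82 for Plvap, -2.08 for Ehd4, -3.92 for Ehd2, -1.86 for S100a6 and -1.41 for Vim, and 5.03 for Rgs5.

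Plvap and Ehd4 in critical animals, and Plvap in subcritical animals, held in 13 of 13 alternatives. The contractile gene Myh11 and the pericyte gene Rgs5 rest on few animals. Each call held in 8 of 13 alternatives, and that for Rgs5 turned round in 2. Myh11 was at 544 CPM in the venous cells of critical replicate 3, at 76.5 CPM in critical replicate 4 and at 0 in the 3 uninjured animals, and its other-cell level was 905 CPM in uninjured replicate 3. Rgs5 was at 3760 CPM in subcritical replicate 2 and at 0 in replicate 4, and 92.5% of its UMIs in the subcritical members came from 5 cells. Ehd2, at 0 and 69.3 CPM in the 2 subcritical animals, held in 4 of 13 alternatives.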

How the results depend on the processing

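Counts of genes at least 2-fold apart by library (423, 492 and 340 for critical against uninjured, subcritical against uninjured and critical against subcritical) became 1326, 1601 and 1298 at a mean of at least 20 CPM and 78, 76 and 18 at 200 CPM, and 701, 775 and 548 without members holding at least 3 pericyte or smooth muscle UMIs. With totals free of ribosomal and mitochondrial genes the last was 523. By animal the counts were 59, 37 and 4, and with DESeq2 22, 9 and 1. A minimum count of 10 gave 29 and 20 for the first 2, and a minimum count of 2 gave 1 for the last. A hashtag share of 70% gave 21, 30 and 5, and Lrg1 not used gave 19, 14 and 0 (no call by edgeR, where 113 genes had an unadjusted p under 0.05). Without members holding at least 3 fibroblast or macrophage UMIs, subcritical against uninjured gave 8. Leaving out 1 animal at a time gave 35 to 66, 13 to 43 and 1 to 6, lowest for both comparisons with uninjured without uninjured replicate 4. Venous against other responses, 6 genes in each comparison, gave 2 and 1 with DESeq2. In critical animals they gave 9 with a hashtag share of 70%, 3 with Lrg1 not used, 10 without the fibroblast or macrophage UMIs and 4 to 9 without 1 animal. In subcritical animals a minimum count of 10 gave 2, Lrg1 not used 23, no fibroblast or macrophage UMIs 4, and leaving out 1 animal 2 to 7. Antibodies past the test, 5, became 3 at a marker sum of at least 4, 1 with the libraries as pairs, and 2 to 7 without 1 animal. The causes were not tested.

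The difference in venous share was 9.86 and 6.03 points against uninjured at a marker sum of at least 4, where both passed. Critical minus subcritical was -1.98 with Lrg1 not used, -1.23 at a marker sum of at least 2 and -1.96 thinned, against 0.748. Leaving out 1 animal gave 2.62 to 12.4 (critical) and 6.55 to 11.5 (subcritical) against uninjured and -5.68 to 4.09 between injuries.

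Some log2 values turned round. With Lrg1 not used, critical against uninjured was 0.152 for Cxcl1, -0.13 for Stmn1, -0.38 for Hmgb2 and -0.10 for Rgcc. Subcritical against uninjured was -0.074 for Stmn1 and, by animal, -0.63 for Rpl10a. Critical against subcritical was -0.74 for Gsn, -0.77 for Cd74, -0.63 for H2-Aa, -0.23 for H2-Eb1 and -0.058 for Stmn1. Without cells of several hashtags, critical against uninjured was -0.30 for Cd74, -0.24 for H2-Aa and -0.10 for H2-Ab1. Critical against subcritical was then -1.25 for Cd74, -0.87 for H2-Aa, -0.94 for H2-Eb1 and -1.43 for H2-Ab1. Without pericyte or smooth muscle UMIs Cxcl1 was 1.24 (critical) and Hmgb2 -0.12 (subcritical against uninjured). With cells weighted equally Hmgb2 was -0.048 (critical against uninjured) and Stmn1 -0.19 (critical against subcritical). With the arterial clause not used Fbln5 was -0.84 and -0.36 against uninjured and Stmn1 -0.17 in subcritical. Cells of at least 1000 UMIs gave -3.21 for Dcn (subcritical against uninjured). Without fibroblast or macrophage UMIs critical against subcritical was -0.000446 for Col1a1 and -0.21 for Gsn. A hashtag share of 70% gave 0.62 for Cst3 (critical, by animal). The Rgs5 difference of responses was -3.78 without fibroblast or macrophage UMIs and ran from -3.60 (without subcritical replicate 2) to 8.19 without 1 animal.

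Among single genes and antibodies, 5143 settings counted as unchanged, 584 lost the call, 174 moved and 31 turned round. By library no test was made, so a gene counted as unchanged there did not keep a test threshold. How many of the unchanged values kept their sign was not counted. The settings without cells holding fibroblast, macrophage, pericyte or smooth muscle UMIs, with equal weights or without the arterial clause, and all tests on animals of at least 3 cells were chosen after seeing the data. Planned gene tests on animals of at least 5 venous cells were not run, since too few injured animals had them. The planned antibody test on animals of at least 5 cells of both kinds was run. Animals cannot be paired between groups because the hashtag numbers are reused for different animals in each group. Depth limits the tests by animal to genes read by several UMIs in sums of 3 to 8 cells.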
